A study of Mus musculus with 10 samples.

Results

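The NR4A and EGR genes are transcription factor genes that T cells switch on within minutes to hours of an antigen signal. Here 6 of them were taken by name from the table of normalized gene counts: Nr4a1, Nr4a2, Nr4a3, Egr1, Egr2 and Egr3. All 6 were found among its 17363 named genes, and all 6 passed the filter on low values that left 14473 genes for testing. They were followed in CD4+CD25- T cells sorted from breast tumours of PyMT mice, C57BL/6 animals that carry a mammary tumour transgene and were 23 weeks old. WT mice carried floxed Tgfbr2 (Tgfbr2 fl/fl) and no Cre. KO mice carried the same alleles with ThPOK-Cre, a Cre driven by regulatory sequence of a CD4 lineage factor, so that the TGF-beta receptor gene was deleted in CD4 T cells. IL4-/- mice lacked Il4, the gene of the type 2 cytokine IL-4, in an otherwise WT setting, and IL4-/-KO mice combined that loss with the ThPOK-Cre deletion. All 4 genotypes therefore shared the PyMT transgene and the floxed Tgfbr2 alleles, and none of the controls carried Cre. Each genotype had 2 replicates. The RNA of both KO replicates was made into a library a second time, called the repeat library here, so the table holds 10 libraries for 8 replicates. Whether replicates stand for different animals is not in the labels, and p-values therefore measure only the spread between these samples, part of which may be technical.

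The proteins of the NR4A family are orphan nuclear receptors that act without a known natural ligand, and those of the EGR family are zinc finger factors. Calcium and ERK signals below the T cell receptor induce both, and the level of Nr4a1 is widely read as a gauge of recent receptor signalling. In T cells that meet antigen repeatedly, NR4A factors and the pair Egr2 and Egr3 are also known for restraining the response, through states described as anergy, exhaustion and tolerance. Both families are early response genes in many other cells as well, epithelium and macrophages included, and the handling of dissociated tissue can induce early response genes.

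In the GENCODE annotation of mm10, Nr4a1 spans chr15:101254269-101274795 on the + strand, Nr4a2 spans chr2:57106830-57124003 on the - strand, and Nr4a3 spans chr4:48045153-48086447 on the + strand. Egr2 spans chr10:67535475-67542188 and Egr3 spans chr14:70077203-70082614, both on the + strand. No other annotated gene overlaps any of the 6, so reads of an antisense or neighbouring gene do not share their intervals. Windows of 4 of the 6 genes were taken from the RefSeq table of promoter windows (GRCm38.p6, the assembly of mm10). They are shown because the genes are defined by fast induction, which acts on such sequences. Any window of Egr1 was left out of the search and is not reported here, and the table held none for Egr3. Each window runs from 250 bases before the annotated start to 50 bases after it. Capitals mark the core of the cyclic AMP response element (CRE), TGACG or its reverse complement CGTCA, and in Egr2 also the CArG box, the site to which serum response factor binds.

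Nr4a1 promoter, chr15:101266596-101266895, + strand: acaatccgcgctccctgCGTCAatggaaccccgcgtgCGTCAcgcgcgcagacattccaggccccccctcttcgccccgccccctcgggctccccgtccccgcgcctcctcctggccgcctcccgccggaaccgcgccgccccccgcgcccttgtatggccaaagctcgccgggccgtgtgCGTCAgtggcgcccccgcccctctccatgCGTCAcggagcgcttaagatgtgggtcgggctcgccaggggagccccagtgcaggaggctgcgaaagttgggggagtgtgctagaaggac
Nr4a2 promoter, chr2:57123954-57124253, - strand: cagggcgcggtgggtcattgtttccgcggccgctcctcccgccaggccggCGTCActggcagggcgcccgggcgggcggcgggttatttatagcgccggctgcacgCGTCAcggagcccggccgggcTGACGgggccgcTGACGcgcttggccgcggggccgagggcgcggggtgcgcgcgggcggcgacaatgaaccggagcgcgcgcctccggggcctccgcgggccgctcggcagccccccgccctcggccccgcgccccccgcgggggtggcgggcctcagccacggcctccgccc
Nr4a3 promoter, chr4:48045055-48045354, + strand: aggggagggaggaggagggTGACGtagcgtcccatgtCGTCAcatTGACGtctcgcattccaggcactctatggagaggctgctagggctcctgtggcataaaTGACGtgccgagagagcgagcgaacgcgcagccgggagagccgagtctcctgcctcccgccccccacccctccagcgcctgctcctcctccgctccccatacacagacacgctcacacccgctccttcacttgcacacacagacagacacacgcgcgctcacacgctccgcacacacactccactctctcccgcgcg
Egr2 promoter, chr10:67537619-67537918, + strand: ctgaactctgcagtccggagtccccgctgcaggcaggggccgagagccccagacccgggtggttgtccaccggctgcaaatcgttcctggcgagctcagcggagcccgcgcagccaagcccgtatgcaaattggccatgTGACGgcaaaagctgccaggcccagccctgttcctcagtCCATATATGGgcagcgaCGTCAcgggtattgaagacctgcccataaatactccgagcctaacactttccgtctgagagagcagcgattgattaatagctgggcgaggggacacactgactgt

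Nr4a1, Nr4a2 and Nr4a3 each held 4 CRE cores in these windows, and Egr2 held 2. At least 1 such core, on either strand, stood in 20.8% of the 32851 windows of that length in the table. The share of windows with as many cores as these genes was not counted. In Nr4a1 the cores began at positions -233, -213, -69 and -40 from the annotated start, and in Nr4a2 at -200, -144, -123 and -111. In Nr4a3 they began at -231, -213, -205 and -147, and that window's start lies 152 bases from the start of the principal GENCODE transcript. The Egr2 window is 1 of 5 in the table for that gene and the one at its principal start. It held cores at -111 and -55 and a CArG box, CCATATATGG, at -72, and no capitals of the 2 motifs overlap. The Egr2 windows that begin at 67535249 and 67537316, not shown, held 0 CRE cores. A CArG box, on either strand, stood in 1.63% of the 32851 windows. The 3 Nr4a windows held no CArG box, which says only that these letters were not in them. GC content was 72.3% in Nr4a1, 81.7% in Nr4a2, 64.7% in Nr4a3 and 60.0% in Egr2.

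The deposited values are reads per gene divided by 1 size factor per library, here called normalized counts. Libraries held 17121030 to 18479090 reads in WT and the first KO libraries, and 28003231 to 33802781 reads in the KO repeats, IL4-/- and IL4-/-KO. All WT libraries are thus of the shallower set and all IL4-/- and IL4-/-KO libraries of the deeper one, and the KO RNAs alone were sequenced in both. Values with a term for the library set, which rests on those 2 RNAs, are given beside the comparisons with WT. Tgfbr2 itself read 7876 and 7894 normalized counts in WT, 5803 to 9442 in KO, 13816 and 12544 in IL4-/- and 7762 and 8205 in IL4-/-KO. That total checks little, since reads outside the deleted part still count, and the labels do not say which part that is. Il4 read 107 and 276 in WT, 236 to 523 in KO, 97 and 75 in IL4-/- and 99 and 40 in IL4-/-KO, so reads remained at this gene without Il4. The repeat library of KO replicate 2 stood farther from its first library than that of replicate 1, with a median absolute log2 difference per gene of 0.79 beside 0.42. Without it the log2 fold changes in KO against WT were -2.08 for Egr2 and -0.55 for Nr4a1, and that of Nr4a3 in IL4-/-KO against KO turned from -0.032 to 0.41. All 10 T cell markers were above 0 in every library. Their sum ran from 110829 to 236952, and Cd4 from 12165 to 40172. Cd8a and Cd8b1, the CD8 T cell genes, summed to 115 to 1126. Markers of epithelium summed to 15243 to 218711 and those of macrophages and monocytes to 2995 to 59982, so the sorted cells came with RNA of other cells in amounts that varied between libraries. Neutrophil markers summed to 109 to 6255, highest in both libraries of KO replicate 1. Dendritic cell markers summed to 468 to 2187, B cell markers to 63.2 to 267, fibroblast markers to 34.3 to 856 and endothelium markers, nearly all of them Pecam1, to 1190 to 2582. In such bulk samples, fewer cells of a type and less RNA per cell cannot be told apart.

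**Figure D1:**
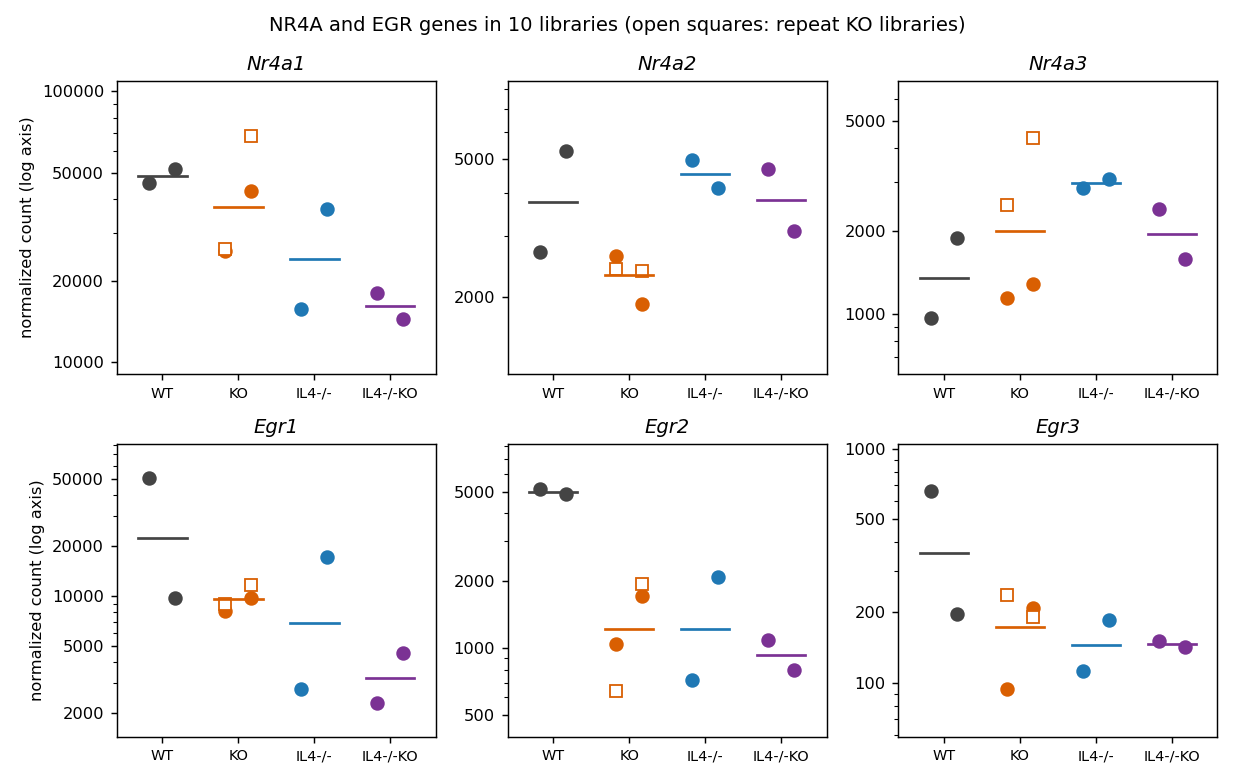
Normalized counts (log axis) of the 6 genes in each of the 10 libraries, by genotype. Filled circles are first or single libraries, open squares are the repeat KO libraries, and bars are the means of the replicates on the log2 scale. The WT values of Egr2, 5116 and 4878, stand above every other library, while the WT values of Egr1 lie apart from each other at 50726 and 9654.

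Per kilobase of exon, Nr4a1 had the highest mean level of the 6 genes in every genotype. Its mean was 13889 ± 1124 normalized counts per kilobase (SD, n = 2) in WT, 11387 ± 5664 in KO, 7474 ± 4229 in IL4-/- and 4621 ± 714 in IL4-/-KO. Egr1 followed in WT, KO and IL4-/-, at means of 6733, 2136 and 2222 per kilobase, and stood below Nr4a2 in IL4-/-KO, at 763 beside 959. Egr2 had a mean of 1471 in WT and of 277 to 411 in the other genotypes. Nr4a2 had means from 573 in KO to 1121 in IL4-/-, and Nr4a3 from 239 in WT to 497 in IL4-/-. Egr3 was the lowest in all 4 genotypes, at 96.9 in WT and 33.3 to 39.6 elsewhere. Between libraries the span was widest for Egr1, whose highest normalized count was 22.1 times its lowest. The corresponding ratio was 7.99 for Egr2, 6.99 for Egr3, 4.72 for Nr4a1, 4.47 for Nr4a3 and 2.76 for Nr4a2.

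Egr2 showed the clearest difference by genotype. This factor acts below calcineurin and NFAT signals and is known in T cells for limiting activation. Egr2 read 5116 and 4878 normalized counts in the WT libraries. In KO it read 1042 and 640 in the first and repeat library of replicate 1, and 1707 and 1929 in those of replicate 2. It read 716 and 2074 in IL4-/-, and 1089 and 795 in IL4-/-KO. Both WT libraries were above all 8 others, and the 3 other genotypes overlapped one another. Of all genes tested, 2.22% (321) had both WT libraries above the other 8. The level was 4.10-fold lower in KO than in WT, a log2 fold change of -2.04 ± 0.57 (SE). The SE here and below is that of limma, from a spread pooled over the 4 genotypes and moderated toward other genes. The difference did not pass limma over all genes (adjusted p = 0.311, unadjusted p = 0.00746). DESeq2 on the recovered reads called this difference, with an adjusted p of 0.0453 at a log2 fold change of -1.91, whereas edgeR gave an adjusted p of 0.377. The log2 fold change was negative under each of the 20 alternatives, between -2.65 and -1.46, with the smallest size when KO replicate 1 was left out.

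Loss of Il4 alone came with a like difference by value. Egr2 was 4.10-fold lower in IL4-/- than in WT (log2 -2.03 ± 0.57; limma adjusted p = 1.0, unadjusted p = 0.00749). Both comparisons use the same WT libraries, so neither is a check on the other. With a term for the library set the value was -1.77 (limma adjusted p = 0.985), and the repeat of an RNA differed from its first library by -0.70 and 0.18. The deletion on the Il4-deficient background gave -0.39 ± 0.57, and the difference between the effects on the 2 backgrounds was 1.65 ± 0.80 (limma adjusted p = 0.967), which did not pass. Averaged over both backgrounds, the Tgfbr2 deletion gave -1.21 ± 0.40 (limma adjusted p = 0.409). Within the shallower set, which holds WT and the first KO libraries, the KO value was -1.90, and the repeat KO libraries against WT gave -2.17.

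Egr3, the closest relative of Egr2 in T cell restraint, was the lowest of the 6 genes. In normalized counts it read 657 and 197 in WT, and 94.1 and 237 for KO replicate 1 and 209 and 191 for replicate 2, first and repeat library in turn. It read 113 and 186 in IL4-/-, and 151 and 143 in IL4-/-KO. The first WT library stood above all others, and the second lay within the range of the KO libraries. The log2 fold change was -1.05 ± 0.76 in KO and -1.31 ± 0.76 in IL4-/- against WT, and limma passed neither, with adjusted p of 0.575 and 1.0. Both IL4-/- libraries were below both WT libraries, though only by the step from 197 to 186. Without WT replicate 1 the value was -0.19 in KO and -0.44 in IL4-/- against WT. With the library set term the IL4-/- value was -1.90. Between IL4-/-KO and IL4-/- the log2 difference was 0.019 ± 0.76, and its sign depended on the processing.

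Egr1, an immediate target of ERK and serum response factor signals (mm10 chr18:34859823-34864984, + strand), varied widely within genotypes. In normalized counts it read 50726 and 9654 in WT, 8129 and 8963 in KO replicate 1, and 9667 and 11669 in KO replicate 2. It read 2773 and 17158 in IL4-/-, and 2300 and 4546 in IL4-/-KO. Replicates differed 5.25-fold in WT and 6.19-fold in IL4-/-, so that a single library set each of those means. The log2 fold changes, all with an SE of 0.98, were -1.22 in KO against WT, -1.68 in IL4-/- against WT, -1.09 in IL4-/-KO against IL4-/- and -1.56 in IL4-/-KO against KO. None passed limma (adjusted p = 0.614, 1.0, 1.0 and 0.566). Without WT replicate 1 the KO value was -0.020 and without WT replicate 2 it was -2.41. With the library set term the IL4-/- value against WT was -1.89. Without that term, leaving out IL4-/- replicate 1 brought the value from -1.68 to -0.37. Both IL4-/-KO libraries were below all 4 KO libraries.

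Fos, an early response gene of the AP-1 family, followed Egr1 over the libraries. Fos read 90311 and 16920 in WT, and 6986 and 40463 in IL4-/-, which is 5.34-fold and 5.79-fold between replicates. The ratio of Egr1 to Fos, in normalized counts not scaled to length, stayed between 0.255 and 0.571 over the 10 libraries, with both WT libraries highest at 0.562 and 0.571. Egr4, the remaining member of the EGR family, was listed at 1525 and 58.1 in WT, at 17.6 and 0 in KO replicate 1, at 650 and 2110 in KO replicate 2, at 0 and 679 in IL4-/- and at 0 and 554 in IL4-/-KO. In each genotype it was thus higher in 1 replicate, while the other read 58.1 or less.

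In some libraries the Egr1 values were high or low together with RNA of other cell types, and in others not. WT replicate 1, the highest library for Egr1, Egr2, Egr3 and Fos, also had the highest epithelium sum, 218711, and its keratin gene Krt8 read 39788 against 2873 in WT replicate 2. IL4-/- replicate 2, the next highest for Egr1 and Fos, had the highest macrophage and monocyte sum, 59982, against 6461 in IL4-/- replicate 1. Its lysozyme gene Lyz2 read 28932, and the other 9 libraries read 856 to 4934. The macrophage and monocyte sum did not order the libraries as Egr1 did, since WT replicate 1 had the lowest sum, 2995, and IL4-/-KO replicate 1, the lowest for Egr1, had the second highest, 11827. The lowest Egr1 values, in IL4-/-KO replicate 1 and IL4-/- replicate 1, stood in the libraries with the lowest epithelium sums, 15243 and 22553. Egr2 read 5116 and 4878 in WT beside epithelium sums of 218711 and 28342. In KO it was higher where the epithelium sum was higher, at 1042 and 640 beside 72454 and 68148 in replicate 1 and at 1707 and 1929 beside 114617 and 145246 in replicate 2. In IL4-/- it read 716 beside 22553 and 2074 beside 63841, whereas in IL4-/-KO it read 1089 beside 15243 and 795 beside 37139. The part of these cell types in the levels of the 6 genes and of Egr4 was not tested.

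**Figure D2:**
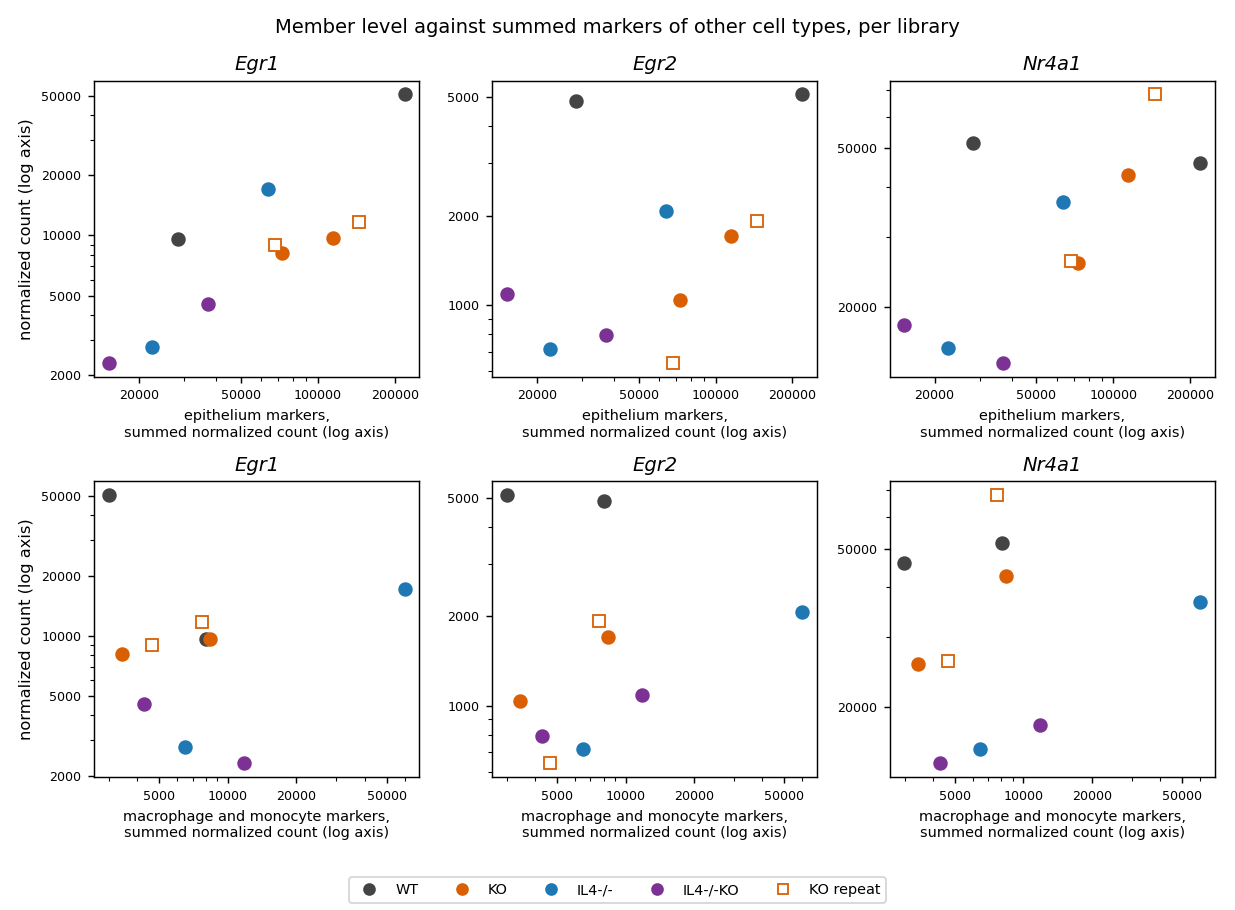
Normalized counts of Egr1, Egr2 and Nr4a1 (vertical, log axis) against the summed normalized counts of the epithelium markers and of the macrophage and monocyte markers (horizontal, log axis), 1 point per library, coloured by genotype, with open squares for the repeat KO libraries. The highest Egr1 value, 50726, lies at the highest epithelium sum, and both WT values of Egr2 stay near 5000 (5116 and 4878) across epithelium sums of 28342 and 218711.

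Nr4a1, the receptor most used as a reporter of T cell receptor signals, had its highest mean in WT and its lowest in IL4-/-KO. In normalized counts it read 45947 and 51524 in WT, 25733 and 26077 in KO replicate 1, and 42774 and 68195 in KO replicate 2. It read 15732 and 36720 in IL4-/-, and 17988 and 14443 in IL4-/-KO. The IL4-/-KO libraries lay below all 4 KO libraries, a 2.32-fold difference (log2 -1.21 ± 0.53; limma adjusted p = 0.409, unadjusted p = 0.0540). Without KO replicate 2 it was -0.68. IL4-/- also lay below WT without overlap (log2 -1.02 ± 0.53; limma adjusted p = 1.0), with -1.36 under the library set term. KO overlapped WT (log2 -0.38 ± 0.53), and IL4-/-KO overlapped IL4-/- (log2 -0.58 ± 0.53). In the order WT, KO, IL4-/-, IL4-/-KO, no pair of neighbours was apart from each other by more than the spread of their libraries. The epithelium sums were also lower in IL4-/-KO (15243 and 37139) than in KO (68148 to 145246), and their part in the Nr4a1 difference was not tested.

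Nr4a2 varied the least. In normalized counts it read 2690 and 5274 in WT, 2620 and 2414 in KO replicate 1, and 1911 and 2383 in KO replicate 2. It read 4979 and 4121 in IL4-/-, and 4677 and 3106 in IL4-/-KO. The KO libraries were below both WT libraries, as were 12.5% of all genes, though by a narrow margin below WT replicate 1. They were also below both IL4-/-KO libraries, and 16.2% of all genes were higher in IL4-/-KO than in KO in that way. Without WT replicate 2 the log2 fold change in KO against WT was -0.22. The log2 fold change was -0.70 ± 0.39 in KO against WT and 0.72 ± 0.39 in IL4-/-KO against KO, and neither passed limma (adjusted p = 0.469 and 0.501). Nr4a2 was thus 1.64-fold higher by value in IL4-/-KO than in KO, the comparison in which Nr4a1 was 2.32-fold lower.

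Nr4a3, which overlaps Nr4a1 in function in T cells, differed between the first and repeat libraries of the KO RNAs. In normalized counts it read 973 and 1889 in WT, 2858 and 3096 in IL4-/-, and 2411 and 1588 in IL4-/-KO. In KO it read 1148 in the first and 2490 in the repeat library of replicate 1, and 1286 and 4355 in those of replicate 2. The repeat exceeded the first library of the same RNA by 1.12 and 1.76 on the log2 scale, where the median gene differed by 0.42 and 0.79 in size. Of all genes tested, 23.2% and 23.7% differed at least as much. The other 5 genes differed between the libraries of an RNA by at most 0.70 on that scale, except Egr3 in replicate 1, at 1.32.

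Nr4a3 was 2.19-fold higher in IL4-/- than in WT without overlap (log2 1.13 ± 0.40; limma adjusted p = 1.0, unadjusted p = 0.0239). All IL4-/- libraries were of the deeper set and all WT libraries of the shallower one. With a term for the library set in a fit of all 10 libraries, the log2 fold change was -0.31, the opposite direction. For KO against WT the value was 0.56 ± 0.40 (limma adjusted p = 0.574) with both KO libraries averaged and -0.16 with the first ones alone. Nr4a3 was lower in IL4-/-KO than in IL4-/-, all 4 libraries of the deeper set, without overlap (log2 -0.60 ± 0.40; limma adjusted p = 1.0).

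Over all 6 genes, limma called 0 in each comparison. For KO against WT the background was 0.00691% of the 14473 genes, a single one, and at an unadjusted p under 0.05 there was 1 of the 6, Egr2, beside 13.1% of all genes. With that contrast 5 of the 6 were lower by sign, as were 57.8% of all genes, and the median of the 6 was -0.88 beside -0.20. Libraries did not overlap for 2 of them, Egr2 and Nr4a2, both lower in KO, and 12.5% of all genes were lower in that way and 10% higher. DESeq2 called 1, Egr2, and 4.03% of the 13070 genes to which it gave an adjusted p. By edgeR, 0 of the 6 and 0.0% of all genes were called.

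IL4-/- against WT gave 0 calls by limma (background 0.0%), and 2 genes at an unadjusted p under 0.05, Egr2 lower and Nr4a3 higher, beside 3.88% of all genes. Libraries did not overlap for Egr2, Egr3 and Nr4a1, which were lower, as were 14.6% of all genes, and for Nr4a3, which was higher, as were 14.7%. DESeq2 called 0 of the 6 and 0.2% of all genes. The median of the 6 log2 fold changes was -1.16 beside 0.0060 for all genes, and those of KO and IL4-/- share the WT libraries. By sign 4 of the 6 were lower, beside 49.5% of all genes.

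IL4-/-KO against KO gave 0 calls by limma (background 0.0%) and 0 genes at an unadjusted p under 0.05, beside 12.5% of all genes. Libraries did not overlap for Egr1 and Nr4a1, lower in IL4-/-KO as were 12.4% of all genes, and for Nr4a2, higher as were 16.2%. By sign 5 of the 6 were lower, beside 47.6% of all genes. The lowest adjusted p of the 6 was 0.128 by DESeq2, which called 2.77% of the 13911 genes with an adjusted p, and 0.479 by edgeR.

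IL4-/-KO against IL4-/- gave 0 calls by limma (background 0.0%) and 0 at an unadjusted p under 0.05, beside 3.19% of all genes. Only Nr4a3 had libraries that did not overlap, lower as were 16.2% of all genes, where 16.8% were higher. By sign 5 of the 6 were lower, beside 52.2% of all genes. The interaction called 0 genes of the 6 (background 0.0%) and had 0 at an unadjusted p under 0.05, beside 3.77% of all genes. Egr2 and Nr4a3 came closest, with unadjusted limma p of 0.0751 and 0.0772. By sign 2 of the 6 were lower there, beside 45.0% of all genes. Averaged over both backgrounds, Tgfbr2 deletion gave 0 calls (background 0.0207%), and 1 gene, Egr2, at an unadjusted limma p under 0.05, beside 10.5% of all genes. By sign all 6 were lower, beside 58.6% of all genes. Libraries did not overlap for 0 of the 6, beside 1.31% of all genes lower and 2.05% higher in that way. The background rates of DESeq2, over the genes to which it gave an adjusted p, were 0.359% for IL4-/-KO against IL4-/-, 0.252% for the interaction and 2.43% for the averaged effect. It called 0 of the 6 in each. For the averaged effect edgeR called 0 of the 6 and 0.0138% of all genes.

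**Figure D3:**
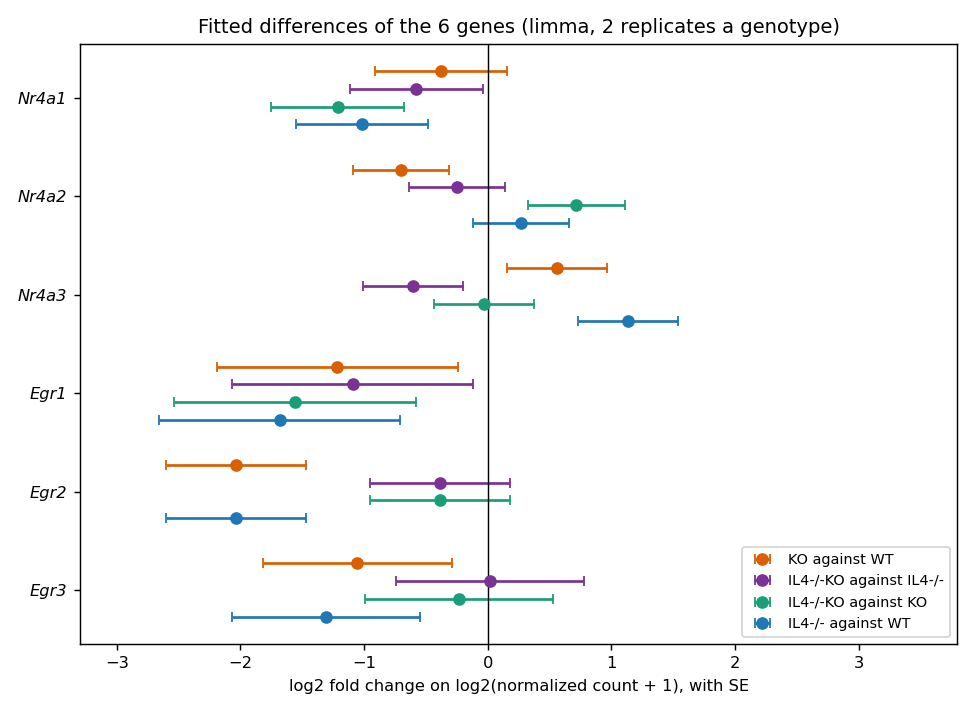
Log2 fold changes of the 6 genes in the comparisons (points) with their standard errors (bars), from limma on log2(normalized count + 1). Egr2 lies at -2.04 in KO and -2.03 in IL4-/- against WT, and no gene passed the adjusted threshold of 0.05.

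Among themselves, the 6 genes differed in pattern over the 8 replicates. Each gene was centred on its mean log2 value, and the difference was measured by root mean square. The smallest distance was that of Nr4a2 and Nr4a3, at 0.51, but the measure is not scaled to spread. Their own spreads about their means were 0.47 and 0.51, the smallest of the 6. Their distance is thus no sign of a shared pattern. Nr4a1 was closer to Egr2 (0.60) and Egr3 (0.63) than to Nr4a2 (0.98) or Nr4a3 (0.97), its own family. Egr1 and Nr4a3 were farthest apart, at 1.69. The ratio of Nr4a1 to Nr4a3, in normalized counts not scaled to length, ran from 5.51 in IL4-/- replicate 1 to 47.2 in WT replicate 1. Nr4a2 and Nr4a3 are the 2 genes whose mean was highest in IL4-/-, whereas the other 4 had theirs in WT. These distances describe the replicates and share their depth and composition.

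By the same measure over 11736 genes, Fos was among the 3 genes nearest to Egr1, at 0.35, with Il11ra1, a receptor chain of interleukin 11, at 0.35 and the leucine zipper gene Tsc22d1 at 0.37. The spread of Egr1 itself about its mean was 1.36 on this scale. Nearest to Egr2, whose own spread was 1.07, were Afap1 (0.31), Samd1 (0.37) and Ccdc102a (0.48), and nearest to Egr3, at 0.72, were Cited2 (0.23), Ss18l2 (0.27) and Abhd5 (0.27). Nr4a1 was nearest to Polr3d (0.31), a subunit of RNA polymerase III, Fntb (0.32) and Pdxk (0.34). Nr4a2 was nearest to Akap10 (0.081), the chaperone gene Hspa4 (0.093) and Atxn7l1 (0.12), and Nr4a3 to Sugp2 (0.16), Ubr4 (0.16) and Med12 (0.17), a subunit of the Mediator complex.

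The genes around these factors were examined as lists, all chosen with earlier results of these data known. Partners and upstream factors were found for 18 of 19 names. In KO against WT 7 of the 18 were higher and 11 lower, with 0 calls by limma and a median of -0.041 beside -0.20 for all genes. Mef2a, a calcium-controlled activator of Nr4a1, read 960 and 2559 in WT and 147 to 434 in KO (log2 -2.39 ± 0.54; limma adjusted p = 0.295). It read 1516 and 1199 in IL4-/-KO, 2.177 ± 0.54 above KO on the log2 scale (limma adjusted p = 0.259). Nab2, a corepressor that EGR factors induce and that binds them, read 1573 and 1263 in WT and 1704 to 6225 in KO. Its log2 fold change in KO against WT was 0.96 ± 0.42 (limma adjusted p = 0.387), opposite to Egr2 by value. The sign was also opposite in IL4-/-KO against IL4-/-, at 0.52 ± 0.42 for Nab2. It was the same as that of Egr2 in IL4-/- against WT (-0.33 ± 0.42) and in IL4-/-KO against KO (-0.77 ± 0.42). Creb1, which binds the CRE, gave 1.43 ± 0.53 for IL4-/-KO against KO (limma adjusted p = 0.345).

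Of the 25 genes of the T cell receptor signal relay, 17 were higher in KO than in WT, with a median of 0.15 and 0 calls by limma. Orai1, the calcium channel pore, read 3632 and 3926 in WT, 7446 to 14008 in KO, 3889 and 3874 in IL4-/- and 4748 and 5485 in IL4-/-KO (KO against WT log2 1.47 ± 0.25; limma adjusted p = 0.218). Cd247, the zeta chain of the receptor complex, gave 0.92 ± 0.34 (limma adjusted p = 0.345). Ppp3r1, a subunit of calcineurin, gave -0.99 ± 0.37 in KO against WT and 1.27 ± 0.37 in IL4-/-KO against KO (limma adjusted p = 0.345 and 0.298). T cell markers themselves had a median of 0.59 in KO against WT, with 10 of 10 higher by value, and the part of T cell RNA content in these values was not tested.

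Of 25 other early genes of activation, 18 were higher in KO than in WT (median 0.19), and 16 were lower in IL4-/-KO than in KO (median -0.35), with 0 calls by limma in both. Tnfrsf9, which encodes the costimulatory receptor 4-1BB, read 3335 and 2023 in WT, 9647 to 15543 in KO, 3464 and 2231 in IL4-/- and 13757 and 5057 in IL4-/-KO. Both groups with the deletion lay above both without it, and the averaged log2 effect was 1.91 ± 0.37 (limma adjusted p = 0.243). Gadd45b, a stress sensor gene, read 3500 and 5083 in WT, 11587 to 22554 in KO, 1876 and 4950 in IL4-/- and 4690 and 2999 in IL4-/-KO. All its KO libraries lay above the others, by 2.13 ± 0.49 against WT and with -2.30 ± 0.49 for IL4-/-KO against KO (limma adjusted p = 0.306 and 0.256). Dusp2, a phosphatase that switches off ERK, gave -1.62 ± 0.38 for IL4-/-KO against KO (limma adjusted p = 0.256). Cd69, a membrane marker of recent activation, read 5921 and 15304 in WT and 1511 to 10330 in KO, overlapping.

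Of the 17 genes linked to EGR2 and EGR3, 13 were higher in KO than in WT and 4 lower. Their median was 0.83 beside -0.20 for all genes, with 0 calls by limma, while Egr2 itself was lower by value. The T cell markers had a median of 0.59 in that comparison, and the part of T cell RNA content was not tested for any of these lists. In IL4-/- against WT, where Egr2 was also lower by value, 10 of the 17 linked genes were higher and 7 lower (median 0.098). In IL4-/-KO against IL4-/- 8 were higher and 9 lower (median -0.019). Nrn1, which encodes neuritin and is raised in anergic T cells, read 92.2 and 34.3 in WT, 616 to 1718 in KO, 238 and 179 in IL4-/- and 2174 and 1334 in IL4-/-KO. The averaged log2 effect of the deletion was 3.56 ± 0.42 (limma adjusted p = 0.0870), and the libraries with the deletion were all above those without it. In IL4-/-KO against KO the cell cycle inhibitor genes had opposite signs, where Cdkn1a gave -1.87 ± 0.40 and Cdkn1b gave 1.47 ± 0.31 (limma adjusted p = 0.256 for both). Of the 14 genes linked to NR4A factors in hypofunctional T cells, 11 were higher in KO than in WT (median 0.81) and 11 in IL4-/- than in WT (median 0.79), comparisons that share the WT libraries.

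Within that list, Batf, an AP-1 partner, read 1400 and 1504 in WT, 3522 to 12548 in KO, 1886 and 1147 in IL4-/- and 3746 and 3357 in IL4-/-KO. The averaged log2 effect of the deletion was 1.82 ± 0.32 (limma adjusted p = 0.233). Foxp3, the regulatory T cell factor, read 437 and 182 in WT, 330 to 3386 in KO, 1415 and 1141 in IL4-/- and 5327 and 1511 in IL4-/-KO (averaged effect 1.43 ± 0.65; limma adjusted p = 0.493). Tox, a factor of exhausted T cells, gave 1.37 ± 0.42 for IL4-/-KO against KO and Ikzf2, which encodes Helios, gave 2.75 ± 1.08 (limma adjusted p = 0.304 and 0.367).

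The 22 genes of the tissue digestion response were all detected. Their sum ran from 428603 in IL4-/-KO replicate 2 to 936898 in the repeat library of KO replicate 2. The first library of that same RNA had a sum of 565778. In IL4-/-KO against KO 16 of the 22 were lower, with a median of -1.001 beside 0.048 for all genes and 0 calls by limma. Ier2, an immediate early gene, gave -1.43 ± 0.40 and Nfkbia, the inhibitor of NF-kappaB, -1.56 ± 0.49 (limma adjusted p = 0.287 and 0.304), while the chaperone gene Hsp90aa1 gave 2.03 ± 0.45 (limma adjusted p = 0.256). Dnaja1, a cochaperone, gave -1.65 ± 0.51 in KO against WT (limma adjusted p = 0.317). Nr4a1, Egr1 and Egr2 also had their lowest means in IL4-/-KO, and the part of tissue handling in these levels was not tested.

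The 12 genes of the TGF-beta response were the contrast to this. All 12 were lower in KO than in WT (median -2.30) and all 12 lower in IL4-/-KO than in IL4-/- (median -1.90). Like the other lists, this list was assembled with results of these data known, so its direction is not independent. Ahr, the aryl hydrocarbon receptor gene, fell by 2.53 ± 0.25 on the log2 scale in the averaged effect (limma adjusted p = 0.0422), the only call in any of the lists.

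**Figure D4:**
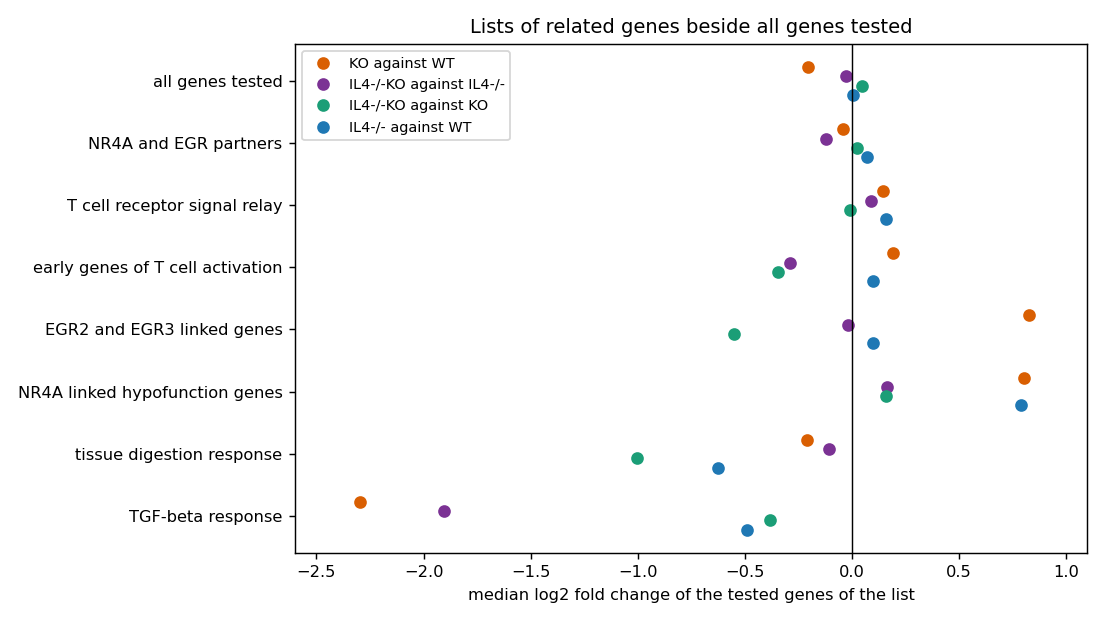
Median log2 fold change of the tested genes of each list (rows) in the 4 pairwise comparisons (colours), with all genes tested in the top row. The TGF-beta response list lies at -2.30 and -1.90 for the deletion on the 2 backgrounds, and the EGR2 and EGR3 linked list at 0.83 in KO against WT and -0.55 in IL4-/-KO against KO.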

How the data were processed

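Messenger RNA levels were measured in 10 libraries of sorted CD4+CD25- T cells from 4 genotypes. Per the labels' protocols, tumours were digested, RNA was amplified with SMART-Seq v4 and libraries were made with the KAPA kit, with no molecular identifiers. Per the submitters' processing notes, bcl2fastq 2.18.0, STAR and DESeq2 were used with build mm10; the read counter was not given in the sources used here. The deposited signal is reads over a size factor, 1 per library, and 100% of values were whole multiples of 1 read (within 0.001), worth 0.644 to 1.47 normalized counts; 7 rows without a gene name (0.0029% to 0.0205% of reads) were left out. Genes that reached 10 normalized counts in 2 or more of the 8 replicates were tested with limma 3.58.1 (R 4.3.3, mean-variance trend, log2(normalized count + 1), Benjamini-Hochberg over 14473 genes, threshold 0.05, two-sided), with 4 residual degrees of freedom. The scale understates changes of low genes. SEs and p-values of limma rest on a spread moderated toward that of other genes, not on the replicates of 1 gene alone. KO first and repeat libraries were averaged on the log2 scale. DESeq2 1.42.0 and edgeR 4.0.16 were run on recovered reads. For these, the reads of the first and repeat library of a KO replicate were summed, so the deeper repeat weighed more. The pipeline was tested on simulated data. Levels per kilobase used the union of GENCODE exons, and figures used matplotlib 3.10.9.

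The members and lists were chosen with earlier results of these data known. Named genes were the 6 members, list members past the threshold or at most 2 with the smallest p in the averaged Tgfbr2 effect and in IL4-/-KO against KO, the 3 genes nearest each member with a mean of at least 50 normalized counts, and at most 2 markers per cell type. Tgfbr2, Il4, Fos, Egr4 and Cd69 were named outside that rule. Alternatives chosen after seeing the data were KO libraries averaged before logs, KO replicate 2 without its repeat library, and scaling to T cell markers.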

Additional observations from a re-analysis of the deposited data

How the results depend on the processing

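None of the 6 genes was called by limma under any alternative, whereas DESeq2 called 1 in KO against WT, Egr2. DESeq2 also called more of all genes than limma, with 527, 51, 386, 29, 35 and 331 in KO against WT, IL4-/-KO against IL4-/-, IL4-/-KO against KO, IL4-/- against WT, the interaction and the averaged deletion, beside 1, 0, 0, 0, 0 and 3. The log2 fold changes of Egr2 against WT kept their sign throughout. Of the 39 reversals over all alternatives, 17 were of Nr4a3, 1 of them in its largest pairwise value. In KO against WT it gave -0.16 with the first KO libraries only, -0.16 with a library set term and -0.059 scaled to the T cell markers. In IL4-/- against WT it gave -0.31 with the set term, where the reported value was 1.13. In IL4-/-KO against KO it gave 0.69 with the first libraries, 0.41 without the repeat of KO replicate 2 and 0.23 scaled to T cell markers. For the averaged deletion it gave 0.34 with repeat libraries only, 0.068 averaged before logs, 0.14 by edgeR and 0.14 by DESeq2. Egr3 reversed in IL4-/-KO against IL4-/- at -0.30 (T cell markers), -0.014 (edgeR) and -0.024 (DESeq2), and in IL4-/-KO against KO at 0.065 (first libraries) and 0.028 (T cell markers). The Nr4a1 interaction was 0.10 scaled to T cell markers. The cause was not tested.

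Leaving out each replicate in turn, no gene was called. The range was -2.41 to -0.020 (Egr1), -1.92 to -0.19 (Egr3), -1.19 to -0.22 (Nr4a2) and 0.082 to 1.04 (Nr4a3) in KO against WT, and -3.00 to -0.37 (Egr1), -2.17 to -0.44 (Egr3), -1.63 to -0.41 (Nr4a1) and 0.65 to 1.61 (Nr4a3) in IL4-/- against WT. Ranges that crossed 0 were, in IL4-/-KO against IL4-/-, -2.41 to 0.22 (Egr1), -1.16 to 0.38 (Egr2), -0.34 to 0.38 (Egr3), -1.19 to 0.035 (Nr4a1) and -0.54 to 0.046 (Nr4a2). They were -0.91 to 0.15 for Nr4a1 in KO against WT and -0.22 to 0.75 for Nr4a2 in IL4-/- against WT. In IL4-/-KO against KO they were -0.96 to 0.19 (Egr2) and -0.33 to 0.27 (Nr4a3). For the interaction they were -1.19 to 1.44 (Egr1), -0.81 to 0.41 (Nr4a1) and -0.034 to 0.94 (Nr4a2), and for Nr4a3 in the averaged deletion -0.26 to 0.22.

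Replicate numbers did not pair the samples: deviations of same-numbered replicates correlated between -0.36 and 0.24. The replicate block left 0 of the 6 genes called, moved the calls over all genes from 1 to 0 in KO against WT and from 3 to 1 for the averaged deletion, and gave Egr2 an adjusted p of 0.440 in KO against WT by limma. With 2 replicates a group, the differences between replicates limit the precision of every comparison.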
